A study of Mus musculus with 2 samples.

Results

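The cells described here are neutrophils from scaffolds in a mouse skull defect in which the chemokine transcript Ccl3 outnumbered the transcripts of the receptors Cxcr2 and Il1r2. A cell counted as a neutrophil with at least 1000 unique molecular identifiers (UMIs, one per captured transcript), under 20% of them mitochondrial, at least 0.5% from S100a8 and S100a9, at least 1 from Csf3r, at most 1 from Csf1r, none from Cd3e, under 0.1% from Col1a2, and under 0.5% from the granule genes Camp, Ngp and Ltf. Of 1449 such neutrophils among 15360 deposited barcodes, 617 held more Ccl3 than Cxcr2 and Il1r2 UMIs together and are called Ccl3-high neutrophils. They number 503 of 1053 neutrophils in the Gel50_CS50 library and 114 of 396 in the Gel100 library. The neutrophils with the opposite balance, 532 and 270 cells, are called Cxcr2 Il1r2 neutrophils, and the remaining 18 and 12 cells were tied.

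Neutrophils are short-lived granulocytes that leave the blood for injured tissue along chemokine gradients. Blood neutrophils carry the chemokine receptor Cxcr2 and the decoy receptor Il1r2. In inflamed tissue, neutrophils are known to make the chemokines Ccl3 and Ccl4 and also Cxcl2, a ligand of Cxcr2 that draws in further neutrophils. Lcn2 encodes lipocalin-2, which withholds iron from bacteria by binding their siderophores, Il1f9 encodes the interleukin-1 family cytokine also called IL-36 gamma, and Treml4 encodes a receptor of the TREM family.

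Both groups were female Balb/c mice aged 6 weeks with a drilled cranial defect of 3.5 mm, and they differed in the cell-free scaffold put into it, Gel50_CS50 or Gel100. The labels do not spell out either scaffold name. At week 1 the scaffolds of 5 mice per group were pooled, digested with enzymes that included chondroitinase and hyaluronidase, and sorted for viable cells before droplet sequencing. Each scaffold is therefore 1 library without replicates: no test between scaffolds could be made, no p-value is given, the mice of a pool cannot be told apart, and every 95% interval below covers counting error only.

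The libraries held 7515 barcodes with 150311308 UMIs for Gel50_CS50 and 7845 barcodes with 108847835 UMIs for Gel100, and 7294 and 6899 barcodes passed the limits on depth and mitochondrial share. Ccl3-high cells were shallow, as neutrophils usually are: their median was 4519 UMIs in Gel50_CS50 and 4069 UMIs in Gel100, and their median mitochondrial share was 0.131% and 0.134%. Scrublet called 8 and 2 of them doublets. Of the 24 barcode sequences that occur in both libraries, 1 in each library belongs to a Ccl3-high cell. The deepest Ccl3-high cells, over 10000 UMIs, numbered 21 in Gel50_CS50 and 0 in Gel100, and results that rest on them are given with and without them.

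Ccl3-high cells took a larger share of the neutrophils on Gel50_CS50. They were 47.8% of neutrophils in the Gel50_CS50 library (exact Clopper-Pearson interval 44.7 to 50.8%) and 28.8% in the Gel100 library (24.4 to 33.5%), a difference of 18.98 percentage points (Newcombe interval 13.4 to 24.2). Of all barcodes that passed the depth and mitochondrial limits they were 6.90% in Gel50_CS50 and 1.65% in Gel100. With every neutrophil thinned to 1000 UMIs, the share of neutrophils was 45.4% in Gel50_CS50 and 27.02% in Gel100, so the gap did not close at equal depth. A stricter margin, in which Ccl3 had to reach at least 3 UMIs and 2 times the receptor UMIs, gave 39.6% and 20.7%. The sort for viable cells and the minimum of 1000 UMIs can set such shares, and their part in the difference was not tested. Among the neutrophils left out for their granule genes, none of 17 cells in Gel50_CS50 and none of 25 in Gel100 held more Ccl3 than Cxcr2 and Il1r2 UMIs, which allows shares of up to 19.5% and 13.7%.

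**Figure D1:**
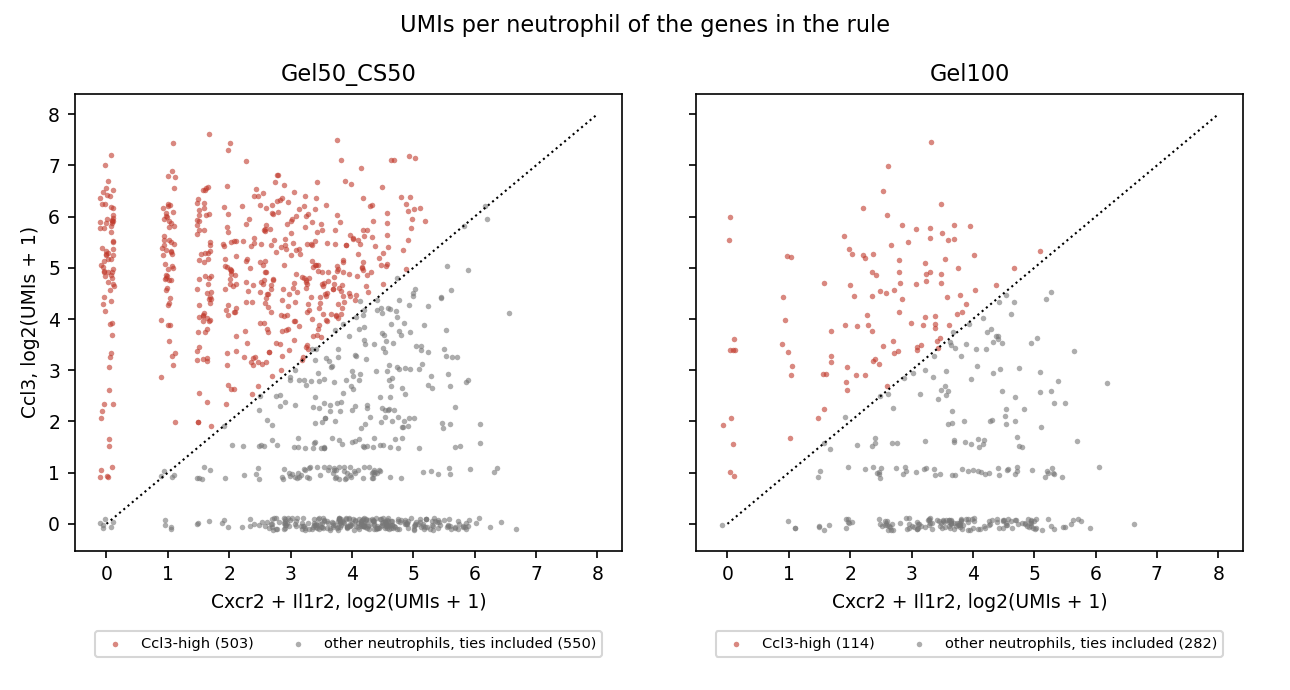
Ccl3 UMIs against summed Cxcr2 and Il1r2 UMIs in each neutrophil, both as log2(UMIs + 1) with a small random shift so that equal values can be seen, with Gel50_CS50 on the left and Gel100 on the right. Red points above the dotted line of equal counts are the 503 and 114 Ccl3-high cells. Within 2 UMIs of the line lay 8.07% of the neutrophils in Gel50_CS50 and 11.4% in Gel100, and whether the range is continuous was not tested.

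The cells were chosen by their Ccl3, Cxcr2 and Il1r2 UMIs among neutrophils selected on the genes listed above, so these values are a description with no test. The median Ccl3-high cell held 31 Ccl3 UMIs in Gel50_CS50 and 19 in Gel100, and 4 and 5 UMIs of Cxcr2 and Il1r2. Of these cells, 74 in Gel50_CS50 and 11 in Gel100 had no Cxcr2 or Il1r2 UMI at all. Just inside the line, by 1 UMI, were 19 and 6 cells with medians of 5 and 2.5 Ccl3 UMIs. Just outside, by 1 UMI, were 21 and 10 cells with medians of 4 and 1.5 Ccl3 UMIs. Within 2 UMIs of the line on either side lay 8.07% of the neutrophils in Gel50_CS50 and 11.4% in Gel100.

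The name neutrophil fits the markers, with a pair of exceptions. Levels are in CPM (counts per 1000000 UMIs, summed over the cells). Of 10 neutrophil markers, 8 stood at or above 50 CPM in Ccl3-high cells of Gel50_CS50 and all 10 in those of Gel100. Among the 10, S100a8, S100a9 and Csf3r were required by the rule, so their presence was fixed beforehand and lends the name no support. Ly6g, a surface marker of mouse neutrophils, was at 15.7 CPM in Gel50_CS50 and 109.6 CPM in Gel100, and Retnlg, a resistin-like gene of blood neutrophils, at 35.9 and 53.8 CPM. Mast cell, eosinophil, B cell, platelet and erythroid marker lists summed to under 5 CPM in both libraries' Ccl3-high cells, and Cd3e and Trac were at 0, Cd3e by the rule. Macrophage markers summed to 1274 CPM in Gel50_CS50 and 953.3 CPM in Gel100, with none of the 8 at 0. Stromal markers, which neutrophils should lack, summed to 337.1 and 119.9 CPM, and monocyte markers to 272.2 and 636.9 CPM. T cell markers summed to 19.5 and 33.1 CPM, NK cell markers to 12.98 and 72.4 CPM, dendritic cell markers to 144.7 and 171.6 CPM and endothelial markers to 32.5 and 14.5 CPM. The part of these other cells' transcripts in the differences between scaffolds below was not tested, except where values without some cells are given. The stromal sum in the Cxcr2 Il1r2 neutrophils of Gel50_CS50 was 323.9 CPM, so collagen transcripts stood at a like level in both kinds of neutrophil in that library. The word tissue in the working name was not tested, since no blood sample was used here. Against all other cells of its library, the 10 genes with the highest fold in Ccl3-high cells included Lcn2 and Il1f9 in Gel50_CS50 and Il1f9 and G0s2 in Gel100.

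The 4 marker genes given with the rule stood higher in Ccl3-high cells than in macrophage-type, T-type and stromal-type cells of their library. Those classes were picked by Csf1r and C1q, by Cd3e and by Col1a2 UMIs and had to hold few S100a8 and S100a9 UMIs. T-type and stromal-type cells also had to hold no Csf1r UMI. Ccl3 is among the 4, and the rule chose the cells by it, so its higher level follows from the choice. Il1f9 was at 2273 CPM in Gel50_CS50 and 1696 CPM in Gel100, against at most 2.2 and 4.7 CPM in any of those classes. After thinning to 1000 UMIs, a Lcn2 UMI was found in 79.9% of Ccl3-high cells in Gel50_CS50 and 22.8% in Gel100. It was found in none of the 198 and 310 T-type cells, which should lack it. Their choice by few S100a8 and S100a9 UMIs also left out cells with many neutrophil transcripts, so this lack is partly set beforehand. Treml4 was at 712.4 and 343.3 CPM. The markers were shared with other neutrophils: in the Cxcr2 Il1r2 neutrophils Il1f9 was at 1106 CPM in Gel50_CS50 and 858.8 CPM in Gel100, and Treml4 at 264.7 and 226.9 CPM. In the 17 and 25 neutrophils left out for their granule genes, Lcn2 was at 6292 and 8594 CPM, against 7724 and 876.8 CPM in Ccl3-high cells. The 4 genes summed to 6847 and 8804 CPM in those granule-gene cells, against 18395 and 8964 CPM in Ccl3-high cells. Of the sums in Ccl3-high cells, 7686 and 6049 CPM were Ccl3, which the rule used, so the sums do not compare the other markers. Ccl3 was also present in macrophage-type cells, at 243.7 and 259.9 CPM.

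How Ccl3-high cells differed between the scaffolds was read from UMIs summed over the cells of each library. Of 2297 genes that averaged 50 CPM or more over both libraries, 16.6% were at least 1.5-fold higher in Gel50_CS50, 20.3% at least 1.5-fold lower, and 36.9% past 1.5-fold in either direction, and the median log2 ratio of Gel50_CS50 over Gel100 was -0.02. The whole interval lay beyond 1.5-fold for 135 higher and 233 lower genes. In the Cxcr2 Il1r2 neutrophils, of which Gel50_CS50 held 532 and Gel100 held 270, 4.45% of 2496 genes were at least 1.5-fold higher and 7.25% at least 1.5-fold lower. Gel100 held 483579 UMIs in its 114 Ccl3-high cells and 1234232 UMIs in its Cxcr2 Il1r2 neutrophils, so counting error was larger in the Ccl3-high comparison. The part of counting error in the gap between the shares of the 2 kinds of neutrophil was not tested. Counts of gene lists below are to be read against these shares, and the lists were chosen with earlier results of these data known.

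**Figure D2:**
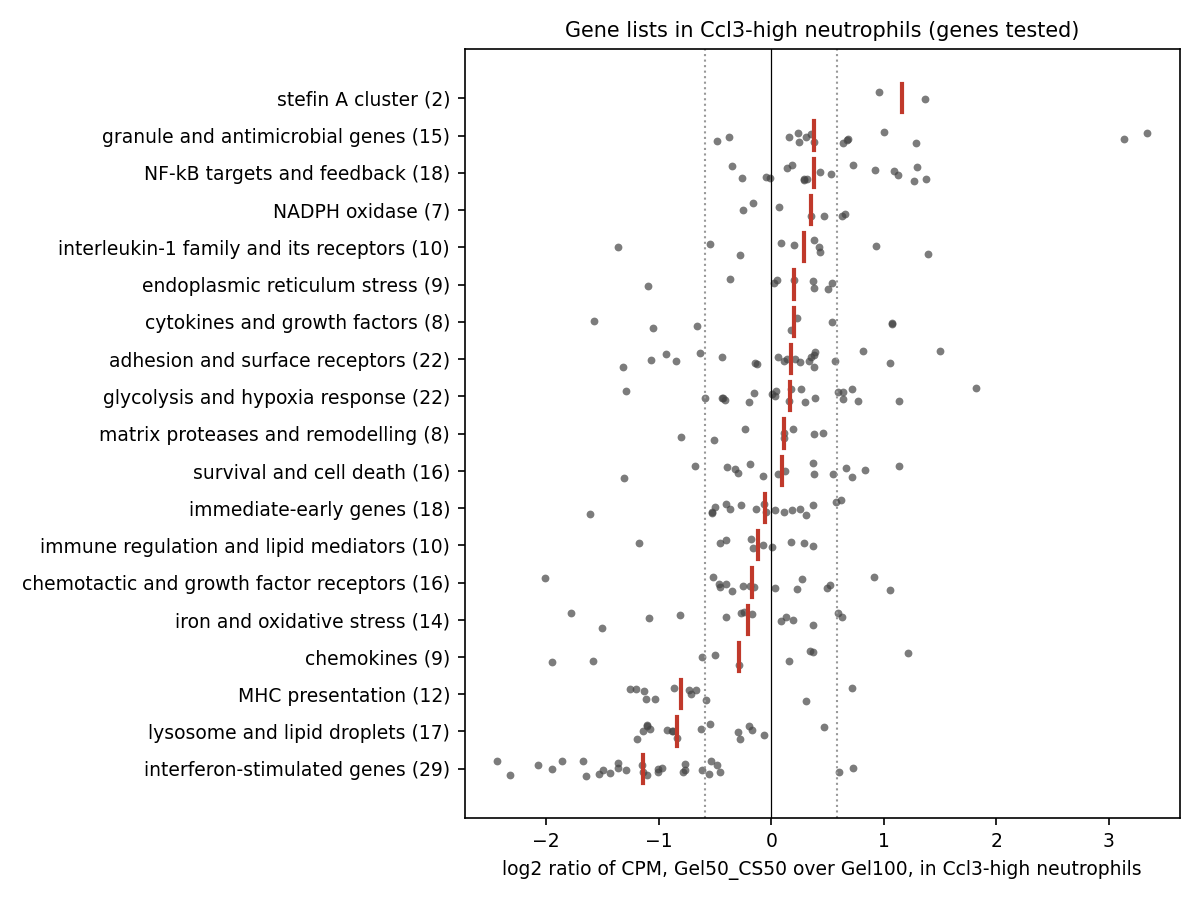
Each point is a gene of a list, placed at its log2 ratio of CPM in Ccl3-high cells, Gel50_CS50 over Gel100; red bars are list medians, dotted lines mark 1.5-fold, and the number of genes tested follows each list name. The interferon list lies lowest, with a median of -1.14. Granule and NF-kB lists have medians of 0.38, and the 2 genes of the stefin A cluster have a median of 1.16. Ccl3, Il1r2, S100a8 and S100a9, which the rule used, are among the points of their lists.

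Chemokine genes of Ccl3-high cells did not differ between the scaffolds in one direction. Of 9 chemokine genes tested, 1 was at least 1.5-fold higher in Gel50_CS50 and 3 at least 1.5-fold lower. The shares over all genes tested were 16.6% and 20.3%, so nothing is read from these counts. Ccl3 itself (chr11:83647844-83649355, minus strand, GRCm38) was at 7686 CPM in Gel50_CS50 and 6049 CPM in Gel100, a log2 ratio of 0.35 (0.29 to 0.40); the rule used this gene, so its level is a description. Ccl4, its neighbour on the same chromosome (chr11:83662584-83664683, plus strand), was lower in Gel50_CS50, at 8951 against 13735 CPM (-0.62, -0.66 to -0.58). Since the rule used Ccl3, nothing is read from the opposite signs of the 2 neighbours. The ratio of Ccl4 was within 1.5-fold, at -0.50, after thinning, at -0.46 with each cell weighted equally and at -0.52 without the 21 deep cells. Cxcl1, which like Cxcl2 acts on Cxcr2, was at 635.3 CPM in Gel50_CS50 and 273.0 CPM in Gel100 (1.22, 0.96 to 1.49). Cxcl2 was at 28347 and 21988 CPM (0.37, 0.34 to 0.40), within 1.5-fold. Cxcl10, an interferon-induced ligand of Cxcr3, was at 1606 CPM in Gel50_CS50 and 6216 CPM in Gel100 (-1.95, -2.02 to -1.88), and the T-cell attractant Ccl5 at 97.4 and 292.0 CPM (-1.58, -1.88 to -1.28).

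The sequences before the start of both the gene that defines these cells and the Cxcr2 ligand Cxcl2 are shown as the 250 bases upstream of the RefSeq start on GRCm38.p6, 5′ to 3′ on the gene's strand, at chr11:83649379-83649628 (minus strand) and chr5:90903649-90903898 (plus strand). Capitals mark matches to a short spelling of the NF-kB motif, GGNNTTTCC, or of the interferon-stimulated response element, TTCNNTTTC, where N is any base. Both strands were searched, and both spellings were settled on after other spellings had been tried on these windows and their matches seen.
Ccl3: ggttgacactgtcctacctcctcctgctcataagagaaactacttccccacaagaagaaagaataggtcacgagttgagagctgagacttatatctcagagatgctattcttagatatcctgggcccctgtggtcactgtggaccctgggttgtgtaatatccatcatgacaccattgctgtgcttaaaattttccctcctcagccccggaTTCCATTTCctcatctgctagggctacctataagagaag
Cxcl2: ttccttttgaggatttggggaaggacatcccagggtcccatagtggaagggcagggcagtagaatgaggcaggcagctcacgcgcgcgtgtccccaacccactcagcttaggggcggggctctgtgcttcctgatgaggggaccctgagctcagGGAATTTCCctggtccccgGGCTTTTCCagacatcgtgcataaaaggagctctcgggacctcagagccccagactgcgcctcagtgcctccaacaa
The Cxcl2 window held 2 matches of the NF-kB spelling, and the Ccl3 window held 1 match of the interferon spelling and none of the NF-kB spelling. Over all 32851 promoter windows of that length in the RefSeq table, 4.93% held the NF-kB spelling and 7.13% the interferon spelling. A match describes letters and not a binding site, and the lack of a match says only that these letters are not in the window. The genes shown were picked after their levels and matches were seen.

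Inflammatory cytokines stood on both sides as well. The interleukin-1 list holds genes of that family and its receptors and also the inflammasome gene Nlrp3. Of its 10 tested genes, 2 were at least 1.5-fold higher in Gel50_CS50 and 1 lower, with a median of 0.29. Among all genes tested 16.6% were higher and 20.3% lower, so nothing is read from these counts. Il1a, an alarmin cytokine, was at 952.9 CPM in Gel50_CS50 and 364.0 CPM in Gel100 (1.39, 1.17 to 1.62). Nlrp3, the sensor of the inflammasome, was at 4626 and 2426 CPM (0.93, 0.84 to 1.02). Il18, an inflammasome-processed cytokine, was lower at 53.1 against 136.5 CPM (-1.36, -1.80 to -0.92), and Il1b was at 17856 and 13712 CPM (0.38, 0.34 to 0.42). Of 8 other cytokine genes tested, Il23a, a subunit of interleukin-23, was at 392.5 against 186.1 CPM (1.08, 0.76 to 1.40) and Il10, an anti-inflammatory cytokine, at 91.2 against 43.4 CPM (1.07, 0.43 to 1.79). Csf1, the growth factor of macrophages, was lower at 988.4 against 2053 CPM (-1.05, -1.16 to -0.95), and Vegfa, an angiogenic factor, at 27.1 against 80.6 CPM (-1.57, -2.16 to -0.97). Tgfb1 was the third gene of this list at least 1.5-fold lower, and Tnf was at 4312 and 3677 CPM (0.23, 0.16 to 0.30).

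Lcn2 and Wfdc21 were far higher in the Ccl3-high cells of Gel50_CS50. Lcn2 (chr2:32384633-32388252, minus strand) was at 7724 CPM in Gel50_CS50 and 876.8 CPM in Gel100, a log2 ratio of 3.14 (3.0 to 3.28). Wfdc21 (chr11:83746940-83752642, plus strand), a secreted protein of the whey acidic protein family, was at 1887 against 186.1 CPM (3.34, 3.04 to 3.66). Saa3, an acute-phase serum amyloid, was at 1276 against 347.4 CPM (1.88, 1.65 to 2.11), and its ratio was 1.15 under the stricter margin of Ccl3 and 3.36 without cells that held a UMI of Csf1r, C1qa, C1qb or C1qc. Haptoglobin, Hp, picked after its values were seen, was at 858.2 against 351.5 CPM (1.29, 1.06 to 1.52). In the Cxcr2 Il1r2 neutrophils the ratio of Lcn2 was 1.03 (0.91 to 1.16), from 1122 and 548.5 CPM, and that of Wfdc21 was 0.23 (0.06 to 0.40), from 401.6 and 342.7 CPM. Of 15 granule and antimicrobial genes tested in Ccl3-high cells, 7 were at least 1.5-fold higher in Gel50_CS50 and 0 at least 1.5-fold lower, with a median of 0.38. The calprotectin subunits S100a8 and S100a9, which the rule used, had ratios of 0.64 (0.60 to 0.69) and 0.31 (0.28 to 0.34). Both belong to this list and S100a8 is among the 7. The count and median thus rest partly on genes the rule used and are a description. Lcn2 and Treml4 were on the marker list that came with the rule, so their presence was known beforehand.

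The Lcn2 start region, shown because Lcn2 differed so widely between scaffolds, lies at chr2:32387740-32387989 (minus strand) and is written like those above.
Lcn2: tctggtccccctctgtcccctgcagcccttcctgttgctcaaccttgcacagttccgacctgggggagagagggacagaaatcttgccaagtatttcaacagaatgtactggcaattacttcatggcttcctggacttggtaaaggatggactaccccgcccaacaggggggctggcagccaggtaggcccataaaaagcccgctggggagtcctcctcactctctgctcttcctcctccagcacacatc
It held neither spelling.

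Adgre1, which encodes the adhesion receptor F4/80 known from macrophages, was at 681.5 CPM in Ccl3-high cells of Gel50_CS50 and 91.0 CPM in those of Gel100 (2.90, 2.47 to 3.37). In the Cxcr2 Il1r2 neutrophils it was at 104.2 and 59.97 CPM. After thinning, an Adgre1 UMI was found in 34.4% of Ccl3-high cells in Gel50_CS50 and 11.4% in Gel100, against 1.01% and 1.94% of T-type cells. The T-type cells were chosen to hold no Csf1r UMI, so their low shares are partly set by that choice and are no measure of stray transcripts. Other macrophage markers did not follow: C1qa was at 45.0 CPM in Ccl3-high cells of Gel50_CS50 and 72.4 CPM in those of Gel100, and Apoe at 444.4 and 597.6 CPM. Without any cell that held a UMI of Csf1r, C1qa, C1qb or C1qc, the ratio of Adgre1 was 3.09.

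Genes of the NF-kB pathway and its feedback were higher in Gel50_CS50 or within 1.5-fold. NF-kB is the transcription factor behind much of the inflammatory response, and many of its targets restrain it. Of 18 tested, 7 were at least 1.5-fold higher and 0 at least 1.5-fold lower, with a median of 0.38. Sod2, the mitochondrial superoxide dismutase, was at 1697 CPM in Gel50_CS50 and 653.5 CPM in Gel100 (1.38, 1.21 to 1.55). The subunit gene Nfkb2 was at 258.5 against 105.5 CPM (1.29, 0.88 to 1.73), the inhibitory adaptor Tnip1 at 723.5 against 299.8 CPM (1.27, 1.03 to 1.52) and the adaptor Traf1 at 779.2 against 357.7 CPM (1.12, 0.90 to 1.36). In the Cxcr2 Il1r2 neutrophils, 2 of 18 were at least 1.5-fold higher, and Traf1 had a ratio of -0.24 (-0.43 to -0.06).

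Interferon-stimulated genes were lower in the Ccl3-high cells of Gel50_CS50. These genes are switched on by type I and other interferons and include antiviral enzymes and translation inhibitors. Of 29 tested, 23 were at least 1.5-fold lower and 2 at least 1.5-fold higher, with a median log2 ratio of -1.14, against -0.02 over all genes tested. Ifit3 (chr19:34583531-34588731, plus strand), an antiviral tetratricopeptide protein, was at 226.8 CPM in Gel50_CS50 and 1228 CPM in Gel100 (-2.44, -2.60 to -2.27). Rsad2 (chr12:26442746-26456452, minus strand), which encodes the antiviral enzyme viperin, was at 3453 against 13309 CPM (-1.95, -1.99 to -1.90). Ifit2 was at 290.9 against 1456 CPM (-2.32, -2.47 to -2.17) and the nucleotide kinase Cmpk2 at 250.8 against 1059 CPM (-2.08, -2.25 to -1.91). Ifitm1 and Ifitm2, membrane proteins that restrict virus entry, were the exceptions, with ratios of 0.73 (0.51 to 0.95) and 0.60 (0.49 to 0.72), the second at 0.52 after thinning.

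The interferon list was also lower in the Cxcr2 Il1r2 neutrophils of Gel50_CS50, where 21 of 29 genes were at least 1.5-fold lower and 1 higher, with a median of -0.71. For 27 of the 29 genes the ratio was lower in Ccl3-high cells than in Cxcr2 Il1r2 neutrophils, with a median gap of -0.38, while among all 2120 genes tested in both kinds of cell 51.5% had the lower ratio in Ccl3-high cells. That gap between the kinds of neutrophil has no replicate check. Rsad2 was at 3213 and 6327 CPM in the Cxcr2 Il1r2 neutrophils. In Gel50_CS50 it stood at nearly equal levels in Ccl3-high and Cxcr2 Il1r2 neutrophils, with a log2 ratio of 0.10, and in Gel100 it was higher in Ccl3-high cells, with a ratio of 1.07.

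The regions before Rsad2 and Ifit3, shown as examples of the genes of the interferon list that were lower in Gel50_CS50, lie at chr12:26456453-26456702 (minus strand) and chr19:34583279-34583528 (plus strand).
Rsad2: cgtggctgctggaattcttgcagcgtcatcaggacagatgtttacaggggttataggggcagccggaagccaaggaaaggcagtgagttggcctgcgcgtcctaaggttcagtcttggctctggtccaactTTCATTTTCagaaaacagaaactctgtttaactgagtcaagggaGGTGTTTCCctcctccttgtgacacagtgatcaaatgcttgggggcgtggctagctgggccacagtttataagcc
Ifit3: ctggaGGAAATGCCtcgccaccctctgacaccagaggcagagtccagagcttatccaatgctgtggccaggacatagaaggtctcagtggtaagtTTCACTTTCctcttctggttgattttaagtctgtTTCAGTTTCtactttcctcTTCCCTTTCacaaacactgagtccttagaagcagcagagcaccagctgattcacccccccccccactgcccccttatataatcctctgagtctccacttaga
Rsad2 held 1 and Ifit3 held 3 matches of the interferon spelling, and each held 1 match of the NF-kB spelling, that of Ifit3 on the opposite strand. Of 26 genes of the interferon list with an entry in the RefSeq table, 12 held the interferon spelling in this window and 5 the NF-kB spelling. Of 16 NF-kB list genes in the table, 2 held the interferon spelling and 8 the NF-kB spelling. Of 7 chemokine genes in the table, 2 held the interferon spelling and 5 the NF-kB spelling. Over all 27025 genes of the table, 8.18% held the interferon spelling and 5.62% the NF-kB spelling.

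**Figure D3:**
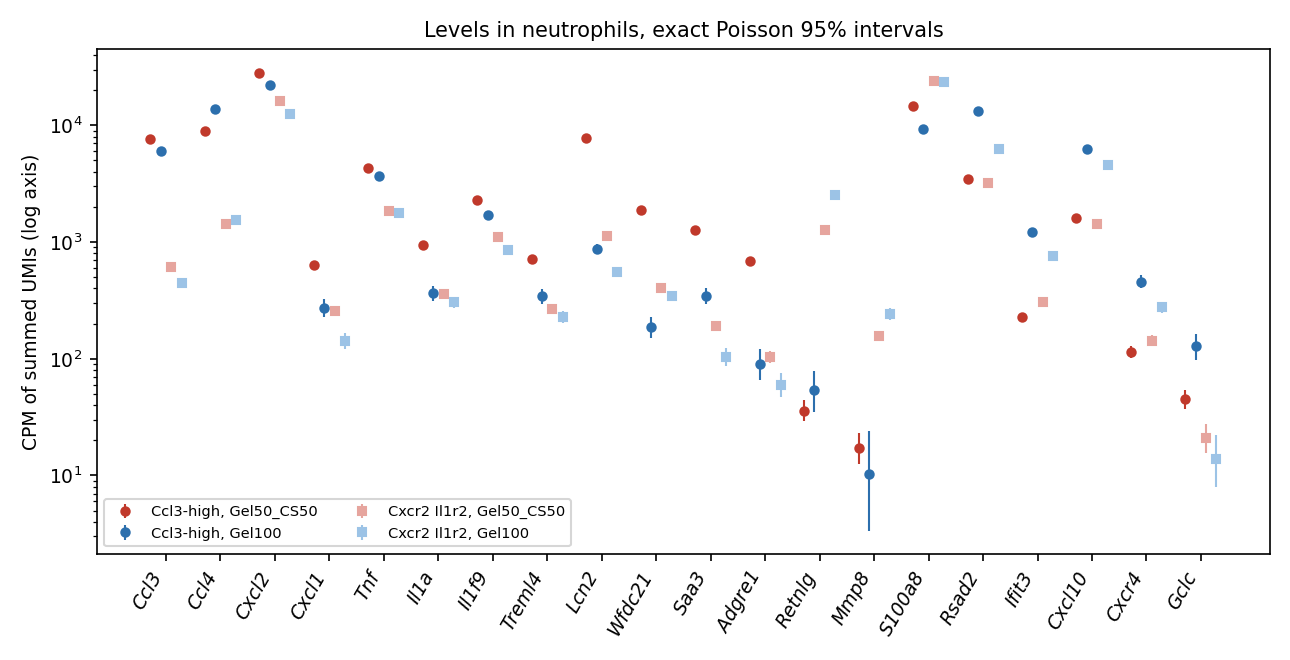
Levels of 20 genes in CPM on a log axis, with exact Poisson 95% intervals for counting error: circles are Ccl3-high cells and squares Cxcr2 Il1r2 neutrophils, red tones Gel50_CS50 and blue tones Gel100. Lcn2, Wfdc21 and Adgre1 stand apart in Ccl3-high cells of Gel50_CS50, and Rsad2, Ifit3 and Cxcl10 are higher in both kinds of neutrophil from Gel100.

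Antigen presentation and lysosomal genes were mostly lower in Gel50_CS50. Of 12 genes of MHC presentation, 9 were at least 1.5-fold lower and 1 higher, with a median of -0.80. H2-Q7, a class I-like molecule, was at 45.0 against 107.5 CPM (-1.26, -1.74 to -0.76) and the immunoproteasome subunit Psmb9 at 97.7 against 225.4 CPM (-1.21, -1.53 to -0.87). B2m, the light chain of class I, was at 3102 against 5079 CPM. The gene on the other side was Cd74, the class II invariant chain, at 231.4 against 140.6 CPM (0.72, 0.35 to 1.10), and its ratio was 0.03 without the 21 cells over 10000 UMIs. In the Cxcr2 Il1r2 neutrophils 8 of the 12 were at least 1.5-fold lower, with a median of -0.66. Of 17 lysosome and lipid droplet genes, 10 were at least 1.5-fold lower and 0 higher in Ccl3-high cells of Gel50_CS50, with a median of -0.84, while in the Cxcr2 Il1r2 neutrophils 2 of 16 were lower, with a median of -0.14. Npc2, a cholesterol carrier, was at 177.1 against 405.3 CPM (-1.20, -1.44 to -0.95), the proton pump subunit Atp6v1a at 86.3 against 190.2 CPM (-1.14, -1.5 to -0.77) and Lamp1, a lysosomal membrane protein, at 152.7 against 328.8 CPM (-1.11, -1.38 to -0.83).

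Iron and oxidative stress genes stood on both sides. Of 14 tested, 2 were at least 1.5-fold higher in Gel50_CS50 and 4 lower. Over all genes tested 16.6% were higher and 20.3% lower, so nothing is read from these counts. The heavy and light chains of ferritin, the iron store, stood on opposite sides: Fth1 was at 26986 against 17478 CPM (0.63, 0.59 to 0.66) and Ftl1 at 4947 against 8671 CPM (-0.81, -0.86 to -0.76). Under the stricter margin the ratio of Fth1 was 0.52. Reads of ferritin genes can be shared with near-identical copies, so both levels are uncertain. Slc40a1, the iron exporter ferroportin, was at 48.9 against 167.5 CPM (-1.78, -2.19 to -1.36). Gclc and Gclm, the subunits of the enzyme that starts glutathione synthesis, were at 45.0 against 128.2 CPM (-1.51, -1.96 to -1.04) and 43.9 against 93.1 CPM (-1.08, -1.59 to -0.55).

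Receptors for chemoattractants were within 1.5-fold for 13 of 16 genes. Fpr1 and Fpr2, receptors for formylated peptides, were higher in Gel50_CS50, at 1371 against 661.7 CPM (1.05, 0.89 to 1.22) and 589.1 against 312.3 CPM (0.92, 0.67 to 1.17). Cxcr4, the receptor that retains neutrophils in the marrow, was lower at 113.8 against 459.1 CPM (-2.01, -2.27 to -1.76), and it was also lower in the Cxcr2 Il1r2 neutrophils (-0.96, -1.17 to -0.74). Cxcr2, used by the rule, was at 386.0 against 430.1 CPM. Of 22 adhesion and surface receptors, 3 were at least 1.5-fold higher and 5 lower. The inhibitory lectin Siglece was at 227.9 against 80.6 CPM (1.5, 1.03 to 2.01) and the lectin Clec4n at 413.1 against 1028 CPM (-1.31, -1.47 to -1.16).

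Of 22 glycolysis and hypoxia genes 7 were at least 1.5-fold higher and 2 lower, with a median of 0.16; the oxidoreductase Ero1l was at 131.7 against 37.2 CPM (1.82, 1.14 to 2.60) and the hexokinase Hk3 at 93.9 against 229.5 CPM (-1.29, -1.62 to -0.95). Of 16 survival and cell death genes 4 were higher and 2 lower, with the stress gene Gadd45a at 1.13 (0.82 to 1.46) and the pro-apoptotic Pmaip1 at -1.31 (-1.55 to -1.07). Bcl2a1a, Bcl2a1b and Bcl2a1d are near-identical copies whose reads may have been split, so their levels are uncertain. Of 18 immediate-early genes 1 was higher and 1 lower, the lower one being Atf3, a stress-induced transcription factor, at 213.03 against 651.4 CPM (-1.61, -1.81 to -1.41). Of 7 NADPH oxidase genes, which make the oxidative burst, 2 were higher and 0 lower. Of 10 immune regulation and lipid mediator genes 0 were higher and 1 lower, of 8 matrix protease and remodelling genes 0 and 1, and of 9 endoplasmic reticulum stress genes 0 and 1. Both tested genes of the stefin A cluster, Stfa2 and Stfa2l1, were higher, at 1.37 (0.73 to 2.08) and 0.96 (0.80 to 1.11), but this cluster holds near-identical copies and the values are uncertain. The ratio of Stfa2 was 0.43 without cells holding Csf1r or C1q UMIs.

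The 12 highest ratios included 6 genes that rested on a few deep cells. Siglech, a lectin known from plasmacytoid dendritic cells, was at 119.1 CPM in Ccl3-high cells of Gel50_CS50, and 309 of its UMIs lay in the 21 cells over 10000 UMIs against 3 in the other 482. Only 6 of the 21 cells held any. Without the 21 cells its level was 1.32 CPM, against 2.07 CPM in Gel100. Grm8, Prkca, Tcf4, Tex2 and Tcf12 were like it in that between 92.3% and 99.3% of their UMIs lay in the deep cells. Without those cells Tcf4, Tex2 and Tcf12 had ratios below 0, with intervals that included 0. Gel100 held 0 UMIs of Grm8 and Prkca, and without the deep cells Gel50_CS50 held 3 and 9 UMIs of them, 1.32 and 3.95 CPM, which is under the floor of 3 counts in Gel100 (6.2 CPM), so no ratio is given. The remaining 6 of the 12 were Maml2, Wfdc21, Lcn2, Gm15987, Adora2a and Adgre1, and each kept a ratio above 2.8 without the deep cells. Adora2a, an adenosine receptor, was at 141.3 CPM in Gel50_CS50 and 18.6 CPM in Gel100 (2.92, 1.98 to 4.06), and Maml2, a coactivator of Notch signalling, at 101.6 and 8.27 CPM (3.62, 2.24 to 5.50).

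The 12 lowest ratios, besides Ifit3, Ifit2 and Cmpk2, were those of Arfgef2, Ly6g, Tecpr1, Susd1, Ifit1bl1, Il15ra, Rgcc, A530032D15Rik and Mreg. Arfgef2, an exchange factor for Arf proteins in vesicle traffic, was at 19.5 CPM in Gel50_CS50 and 167.5 CPM in Gel100 (-3.10, -3.64 to -2.58). Ly6g had a ratio of -2.81 (-3.43 to -2.19), Il15ra, the interleukin-15 receptor chain, of -2.19 (-2.81 to -1.57), and Mreg, which encodes melanoregulin, of -2.11 (-2.47 to -1.74). After thinning, Ly6g and Il15ra had ratios of -0.82 and -0.76. Some of these genes were found in few cells before thinning. A Ly6g UMI was in 6.56% of cells in Gel50_CS50 and 11.4% in Gel100, a Rgcc UMI in 7.16% and 12.3%, and an Arfgef2 UMI in 6.36% and 21.1%. Ifit3 was more widely found, in 29.4% and 71.1%. The intervals do not cover uneven spread over cells. The reads of Ifit1bl1 may be shared with near-identical relatives, so its value is uncertain. In the Cxcr2 Il1r2 neutrophils Arfgef2 was at 27.2 and 19.4 CPM (0.49, -0.20 to 1.22), so its interval there included 0.

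Set beside the Cxcr2 Il1r2 neutrophils of the same library, Ccl3-high cells differed by the contrast the rule used, and the following is a description only. Of 2212 genes tested, 1.22% were at least 2-fold higher and 4.02% at least 2-fold lower in both libraries, 5.24% in all, and nothing is read from these shares. Besides Ccl3, the highest smaller ratios were those of Ccl4, with log2 ratios of 2.64 in Gel50_CS50 and 3.16 in Gel100, Schip1 (1.98 and 1.97), the endoribonuclease Zc3h12c (2.11 and 1.74), Saa3 (2.74 and 1.73) and the drug and glutathione transporter Abcc1 (2.05 and 1.47). The coagulation factor F10 had ratios of 1.42 and 2.33. The others of the 15 highest were AA467197, Esd, Myo18a, Rhof, Agpat4, Tm9sf4, Adgb and Gm11613. Tnf, with ratios of 1.23 and 1.04, was the 1 of 6 tested cytokine and growth factor genes at least 2-fold higher in both libraries. Of 10 genes of the interleukin-1 list, 1 was higher, Il1rn, which encodes the interleukin-1 receptor antagonist (1.48 and 1.16). The 1 lower gene was Il1r2, which the rule used, and the list medians were -0.04 and -0.16. Osm, a cytokine of the interleukin-6 family, had ratios of -0.84 and -0.48.

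Among the 15 lowest were Retnlg and Mmp8, and these were the 2 of 17 tested granule and antimicrobial genes at least 2-fold lower in both libraries. Retnlg (chr16:48872621-48874496, plus strand) was at 35.9 CPM in Ccl3-high cells and 1269 CPM in Cxcr2 Il1r2 neutrophils of Gel50_CS50, and at 53.8 and 2552 CPM in those of Gel100, log2 ratios of -5.14 and -5.57. Mmp8, the collagenase of neutrophil granules, had ratios of -3.20 and -4.55. Cd101, a surface protein of mature neutrophils, had ratios of -2.97 and -1.66 and Alox5, the lipoxygenase that starts leukotriene synthesis, of -1.82 and -2.40. Slc2a3, a glucose transporter, had ratios of -1.70 and -2.10. Mtus1, Arhgap15, Rab44, Ipcef1, Dhrs7, Ankrd13c, Oprm1, Pacs1 and Glipr1 were also among them.

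Levels changed in steps along the Ccl3 share of a neutrophil's Ccl3, Cxcr2 and Il1r2 UMIs, the quantity the rule cuts. From a share of 0, through shares below 0.5 and below 0.9, to shares of at least 0.9, Retnlg stood at 1982, 628.2, 42.7 and 26.4 CPM in Gel50_CS50, and at 3793, 1212, 58.2 and 37.9 CPM in Gel100. Its levels on the Ccl3-high side of the line were thus far below those of cells without Ccl3. Tnf climbed over the same steps, at 1561, 2090, 3779 and 5053 CPM in Gel50_CS50 and at 1673, 1913, 3513 and 4262 CPM in Gel100. Lcn2 climbed in Gel50_CS50, at 783.0, 1427, 6327 and 9663 CPM, but stood at 441.5, 664.1, 584.7 and 1923 CPM in Gel100. Rsad2 was highest in the third step on both scaffolds, at 3889 CPM in Gel50_CS50 and 14521 CPM in Gel100. The third step held 280 cells in Gel50_CS50 and 87 in Gel100, and the top step held 223 in Gel50_CS50 but 27 in Gel100. The Ccl3-high cells of the 2 libraries thus differed in their mix of steps, and the part of this mix in the scaffold ratios above was not tested. Fth1, for one, was at 23932 and 14011 CPM in the third step and at 31226 and 29891 CPM in the top step.

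**Figure D4:**
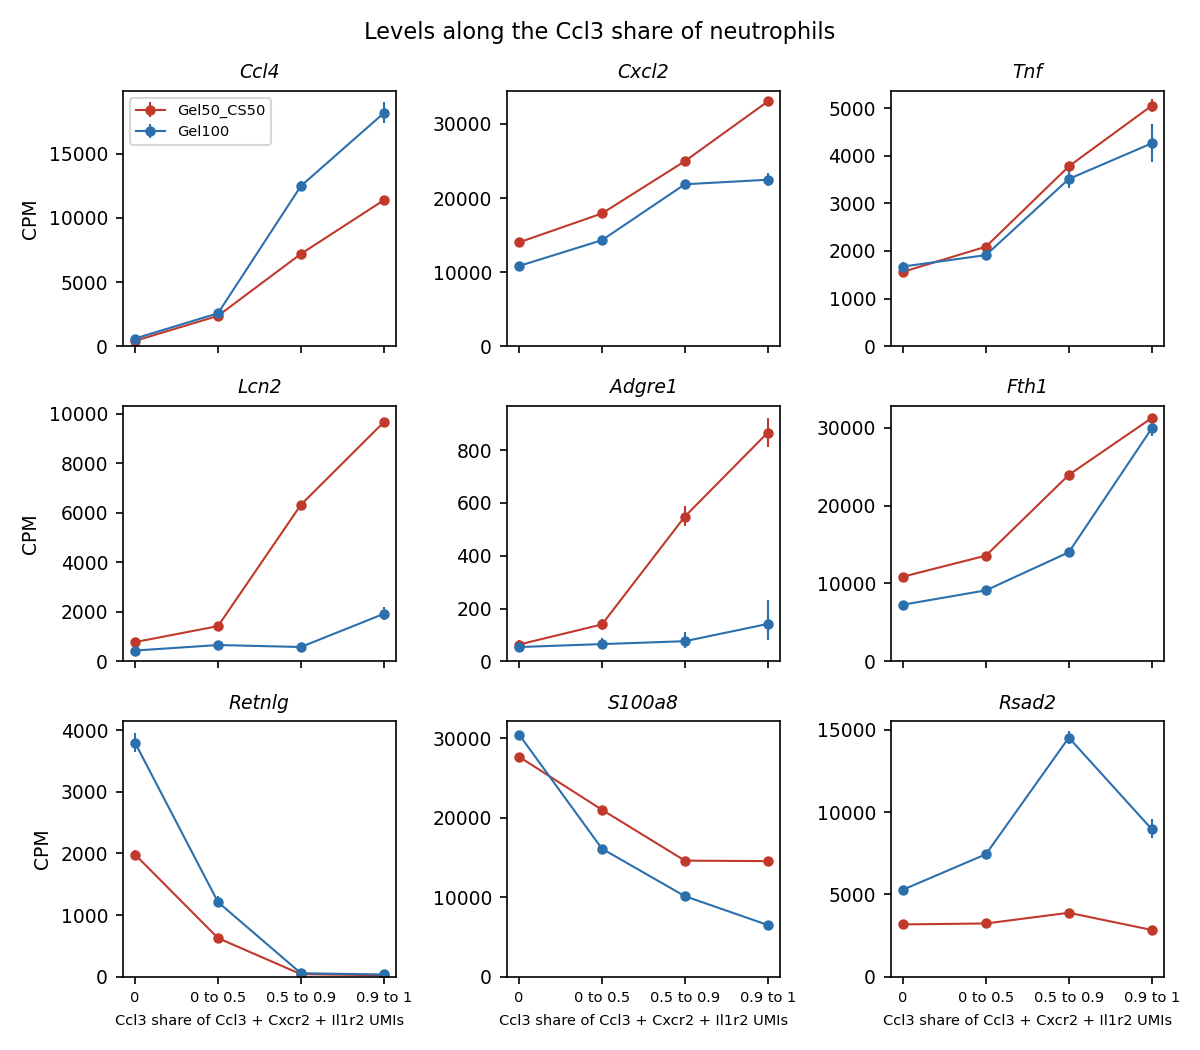
CPM of 9 genes in neutrophils split by the Ccl3 share of their Ccl3, Cxcr2 and Il1r2 UMIs, red for Gel50_CS50 and blue for Gel100, with exact Poisson 95% intervals for counting error. Retnlg and S100a8 decline and Ccl4, Cxcl2 and Tnf climb with the share in both libraries, while Lcn2 and Adgre1 climb steeply in Gel50_CS50.

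The Ccl3-high cells were not uniform, and single cells were compared after thinning each to 1000 UMIs. Lcn2 had a median of 5 UMIs per cell in Gel50_CS50, with quartiles of 1 and 13, and a median of 0 in Gel100, where the highest cell held 21. At least 5 Lcn2 UMIs were found in 265 cells of Gel50_CS50 (52.7%) and 8 cells of Gel100 (7.02%). The summed interferon list had a median of 22 UMIs per cell in Gel50_CS50 (quartiles 12 and 39) and 52 in Gel100 (quartiles 26.25 and 83.75), so the 2 distributions overlapped. Cxcl10 was uneven: a UMI was found in 27.4% of cells in Gel50_CS50 and 53.5% in Gel100. Cxcl2 was found in nearly every cell, 99.2% and 98.2%.

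Summed UMIs of the list of interferon-stimulated genes were compared between cells with and without Lcn2 of the same library. In Gel50_CS50 the median of the interferon list was 23 UMIs in cells with at least 5 Lcn2 UMIs, 22 in cells with 1 to 4 and 20 in cells with none. In Gel100 the medians were 70 in 8 cells, 62.5 in 18 cells and 49.5 in 88 cells. Across the 503 cells of Gel50_CS50 Lcn2 and the interferon sum had a Pearson r of -0.04 and a Spearman rho of 0.03, and across the 114 cells of Gel100 they had an r of 0.02 and a rho of 0.10. In Gel50_CS50 Ccl3 and Ccl4 had an r of 0.47 and a rho of 0.44. In Gel100 Ccl3 and Ccl4 had an r of 0.54 and a rho of 0.50. These cells share 1 library each, so the correlations are descriptions. Mean Adgre1 was 0.98 UMIs in Gel50_CS50 cells with at least 5 Lcn2 UMIs and 0.099 in those with none, while in Gel100 the means were 0.125 in 8 cells and 0.102 in 88 cells. Lcn2 and Adgre1 had a Spearman rho of 0.33 in Gel50_CS50 and 0.07 in Gel100 and a Pearson r of 0.22 and 0.01.

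**Figure D5:**
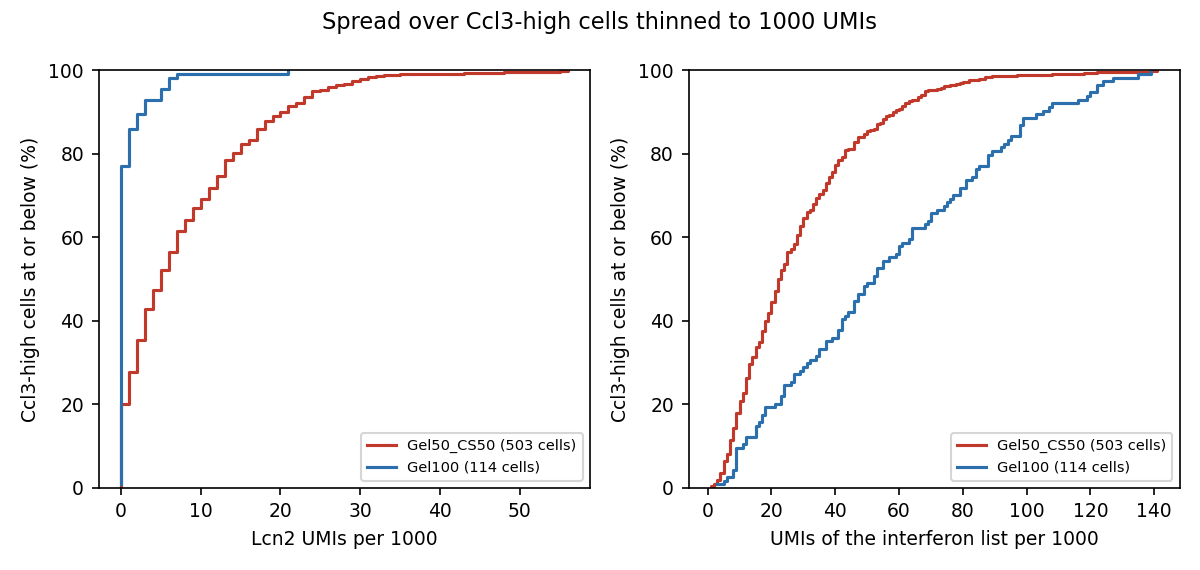
Cumulative percentage of Ccl3-high cells (503 in Gel50_CS50, red; 114 in Gel100, blue) at or below a given number of UMIs after thinning to 1000 UMIs per cell, for Lcn2 on the left and the summed interferon list on the right. No Lcn2 UMI was found in 20.1% of cells in Gel50_CS50 and 77.2% in Gel100, and the interferon curve of Gel100 lies to the right of that of Gel50_CS50.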

How the data were processed

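The deposited values are raw UMI counts per gene and barcode. Per the file headers they come from Cell Ranger 6.0.2, and mm10 is the build in the submitters' processing notes. The sources at hand state neither the annotation release nor how reads of near-identical genes were counted. The lowest barcodes held 503 UMIs in Gel50_CS50 and 500 in Gel100. The cells and gene lists were chosen with earlier results of these data known.

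UMIs were summed over the cells of a class and library and scaled to 1000000, giving CPM with exact Poisson intervals; log2 ratios have exact conditional binomial 95% intervals. Where a side had 0 UMIs of a gene, a floor of 3 counts was used, and no ratio is given where the other side was at or under that floor. Genes needed a mean of 50 CPM over the 2 sides. Ratios and intervals were tested on simulated counts drawn independently for each gene. That simulation held no clustering of UMIs in single cells, so it says nothing of intervals for genes concentrated in a few cells. Named genes were the 12 highest and 12 lowest scaffold ratios whose interval lay beyond 1.5-fold. Also named were the 15 highest and 15 lowest by the smaller ratio against Cxcr2 Il1r2 neutrophils, and up to 4 per direction of each list. Genes of no such rule (Il1b, B2m, Hp, Cxcl2 and others) were picked after their values were seen, whether their ratios were small or, as for Hp, large. Doublets were called with Scrublet in scanpy 1.11.5 at an expected rate of 0.06 and were kept. Sums and intervals were computed in Python 3.11.15 with scipy 1.17.1, numpy 2.4.6 and pandas 2.3.3. Of 32285 gene identifiers, 99.6% were found in GENCODE vM21 for GRCm38, which gave the gene coordinates; promoter windows are from the RefSeq table on GRCm38.p6. Some named genes are not reported here. The alternatives were 12 planned and 1 added after the data were seen.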

Additional observations from a re-analysis of the deposited data

Results flagged for a closer look

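A difference between the libraries in the ratio of Ccl3-high over Cxcr2 Il1r2 neutrophils, past 1.5-fold in opposite directions, was seen for 4 named genes. With 1 library per scaffold the difference was not tested. Wfdc21 had a log2 ratio of 2.23 in Gel50_CS50 and -0.88 in Gel100, and its signs held under every alternative tried, with ranges of 2.22 to 2.44 and -1.84 to -0.60. Slc40a1 had -1.22 and 0.60, with ranges of -1.58 to -1.09 and 0.49 to 0.78. Ccl5 had -0.62 and 1.5, and the Gel50_CS50 value ranged from -0.70 to 2.07 over the alternatives, the highest without Scrublet doublets. Tcf4 had 0.88 and -2.20, and these became -0.64 and 0.45 without cells over 10000 UMIs.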

How the results depend on the processing

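The share of Ccl3-high cells among neutrophils was 39.6% in Gel50_CS50 and 20.7% in Gel100 with a wider margin of Ccl3; its difference stayed between 18.2 and 19.2 points over the alternatives run. The counts of genes past 1.5-fold between scaffolds became 232 higher and 288 lower at a mean of 100 CPM, and 2298 and 2945 with no minimum, where more and lower genes are tested. Against Cxcr2 Il1r2 neutrophils, the 27 genes higher in both libraries became 43 after thinning, 53 when centred on the median gene, 45 with totals without the 20 genes with most UMIs and 263 with no minimum; the 89 lower became 41 at 100 CPM and 376 with no minimum.

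Signs turned for a few genes. Thinning gave a scaffold ratio of -0.31 for Pfkp. Without cells holding macrophage UMIs, Cd74 had -0.065 between scaffolds and 0.0403 against Cxcr2 Il1r2 neutrophils in Gel100, and without cells over 10000 UMIs that second value was 0.36. Leaving those deep cells out gave -0.65 for Siglech, from 3 and 1 UMIs (-4.29 to 5.06), -1.24 for Tcf12, -0.76 for Tcf4, -0.36 for Tex2, and 0.45 for Tcf4 against Cxcr2 Il1r2 neutrophils in Gel100. Grm8 and Prkca, at 0 UMIs in Gel100, gave no value without the deep cells, nor Prkca after thinning. The interferon list had 22 to 26 genes at least 1.5-fold lower under every alternative run.

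No paired analysis was possible because each scaffold is 1 pooled library. Leaving out a replicate was not possible either. The 114 cells and 483579 UMIs of Gel100 limit the low genes: 3 counts there equal 6.2 CPM, against 1.15 CPM in Gel50_CS50.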

Other observations

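Hmox1 and Vegfa stood apart in the 27 cells of Gel100 with a Ccl3 share of at least 0.9, and they are given as values chosen after the data were seen. Hmox1, the enzyme that breaks down haem, was at 166.8 CPM in the matching 223 cells of Gel50_CS50 and 407.3 CPM in those 27 cells, against 130.1 and 105.8 CPM in the step below. Vegfa was at 18.2 and 180.0 CPM in the top step and 33.5 and 52.9 CPM in the step below. The levels in the 27 cells rest on 43 Hmox1 UMIs (294.7 to 548.6 CPM) and 19 Vegfa UMIs (108.3 to 281.0 CPM). Whether a few of the 27 cells held most of them was not tested. Cxcr4 was higher in Gel100 in each of the 4 steps, at 153.3, 133.4, 122.2 and 102.1 CPM in Gel50_CS50 and at 285.5, 268.0, 388.9 and 710.3 CPM in Gel100 from the lowest share to the highest. No test was made, since these are cells of 1 library per scaffold.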
